A study of Homo sapiens with 30 samples.

Results

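The 9 genes described here make or break down the sugar chains of glycosphingolipids, and their transcripts were measured in hCMEC/D3, an immortal human cell line from the small vessels of the brain that serves as a model of blood-brain barrier endothelium. They were found by symbol, and all 9 of 9 were present among the 63138 genes of the count table. ST3GAL5 and A4GALT were picked because earlier results on these libraries showed opposite responses to tumour necrosis factor, so the values of TNF against Control are a description here and carry no test for any of the 9 genes. The other 7 genes stand before, at, or after the branch at which those 2 enzymes meet.

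The 30 libraries fall into 10 groups of 3. In the direct groups the cells were kept for 12 h in serum-free medium with nothing added (Control), or with 25 ng/mL of tumour necrosis factor alpha (TNF), 10 ng/mL of interleukin 1 beta (IL1b), 50 ng/mL of C5a, an anaphylatoxin released from complement (C5a), or 200 nM of epinephrine (Epinephrine). In the vesicle groups, cells of the same line received extracellular vesicles collected from the medium of cells that had been given each of those treatments, and their names carry the prefix EV (EV-Control, EV-TNF and so on). The labels give 12 h for the vesicle groups as well, and no vesicle dose. All groups are 1 cell line, and no label says whether replicates were separate cultures, so p-values measure the spread between these libraries only, which may be technical.

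Library totals ran from 16643961 to 22112326 counts. All 8 endothelial markers checked had a median over 1 CPM (read counts normalised to library size and to trimmed mean of M-values factors), and their summed level was 598 to 1040 CPM per library. Of 5 pericyte markers, 4 were also over 1 CPM, with a summed level of 705 to 999 CPM, which was 955 CPM on average in Control and 983 CPM in TNF. By median, ANPEP was at 405 CPM, CSPG4 at 336 CPM, PDGFRB at 73.2 CPM and RGS5 at 8.65 CPM. The remaining pericyte marker, KCNJ8, was at 0 in 29 libraries. Summed markers of astrocytes, leukocytes, neurons and epithelium were at most 5.77, 2.83, 4.16 and 0.472 CPM, and AQP4 was at 0 in all 30 libraries. The part of pericyte-marker genes in the results was not tested. In such bulk RNA, fewer cells with a transcript and less transcript per cell cannot be told apart.

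Glycosphingolipids are lipids of the outer leaflet of the plasma membrane, built in the Golgi by adding sugars one at a time to ceramide. Glucose is added first and galactose next, which gives lactosylceramide, and from there separate enzymes commit the molecule to different series. Addition of sialic acid opens the ganglioside series, and addition of an alpha-linked galactose opens the globo series, whose member Gb3 is the receptor for Shiga toxin and is known from brain endothelium. Lysosomal hydrolases take the chains apart again.

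The upstream sequences of the enzymes at the branch are shown because their transcripts moved in opposite directions in TNF cells. They are the 250 bases before the first start site listed by RefSeq (GRCh38.p14, both genes on the minus strand), at chr2:85888991-85889240 for ST3GAL5 and at chr22:42720871-42721120 for A4GALT. RefSeq gives 5 such windows for ST3GAL5 and 2 for A4GALT, and 6 of the 9 genes have at least 1. Capitals mark the cAMP response element TGACGTCA and the GC box GGGCGG, each searched on both strands with overlapping matches counted.
ST3GAL5: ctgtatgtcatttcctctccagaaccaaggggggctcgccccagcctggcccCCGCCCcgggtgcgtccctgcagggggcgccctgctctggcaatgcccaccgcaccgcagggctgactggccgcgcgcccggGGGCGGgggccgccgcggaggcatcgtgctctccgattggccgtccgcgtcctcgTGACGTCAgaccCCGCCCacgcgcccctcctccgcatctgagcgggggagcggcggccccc
A4GALT: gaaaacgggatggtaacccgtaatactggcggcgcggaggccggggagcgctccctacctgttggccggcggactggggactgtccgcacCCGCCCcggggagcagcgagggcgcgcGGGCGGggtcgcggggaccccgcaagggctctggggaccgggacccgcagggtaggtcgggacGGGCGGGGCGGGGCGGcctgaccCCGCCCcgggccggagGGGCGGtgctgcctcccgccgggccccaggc
In the 300-base window that adds the 50 bases after the start, TGACGTCA occurred once in ST3GAL5, 61 bases before the start, and not in A4GALT. It is found in 1.85% of all 35116 windows of this length. GGGCGG had 4 matches in the ST3GAL5 window and 9 in the A4GALT window, of which 3 and 7 lie in the stretches shown. It is found in 45% of all windows. The other start sites differed, with 4, 3, 1, 0 and 0 matches of GGGCGG over the 5 ST3GAL5 windows. Over the 2 A4GALT windows there were 9 and 1. TGACGTCA was in windows 1 and 2 of ST3GAL5 only, and in no A4GALT window. Windows 1 and 2 overlap, and this is the same site, 61 and 17 bases before their starts. Window 1 of ST3GAL5 also shares GGGCGG sites with windows 2 and 3, so these matches are not all separate sites. The NF-kB consensus had no match in any window of the 6 genes and is found in 11.3% of all windows. These are letter matches in these windows only, and no binding was measured.

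Transcript levels set on a common scale, as CPM per kilobase of merged exons, differed widely among the 9 genes in Control cells. UGCG was the most abundant at 135 ± 1.59 CPM per kb (SD, n = 3), followed by B4GALT5 at 48.9 ± 1.3 CPM per kb. GLA and A4GALT were at 19.8 ± 0.932 and 18.5 ± 0.601 CPM per kb, ST3GAL2 at 8.22 ± 0.408 CPM per kb, NEU3 at 2.46 ± 0.0641 CPM per kb and B4GALT6 at 2.03 ± 0.184 CPM per kb. ST3GAL5 was at 1.42 ± 0.133 CPM per kb, where the 16318 bases of merged exons cover every isoform and so lower its value. Merged exons were used for all 9 genes, with 9744 bases for ST3GAL2, 8003 for B4GALNT1 and 7556 for NEU3. The order thus depends on this length. Without it, ST3GAL5 was at 23.2 CPM in Control, above NEU3 at 18.6 CPM and B4GALT6 at 10.8 CPM. B4GALNT1 was the least abundant at 0.278 ± 0.0791 CPM per kb.

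**Figure D1:**
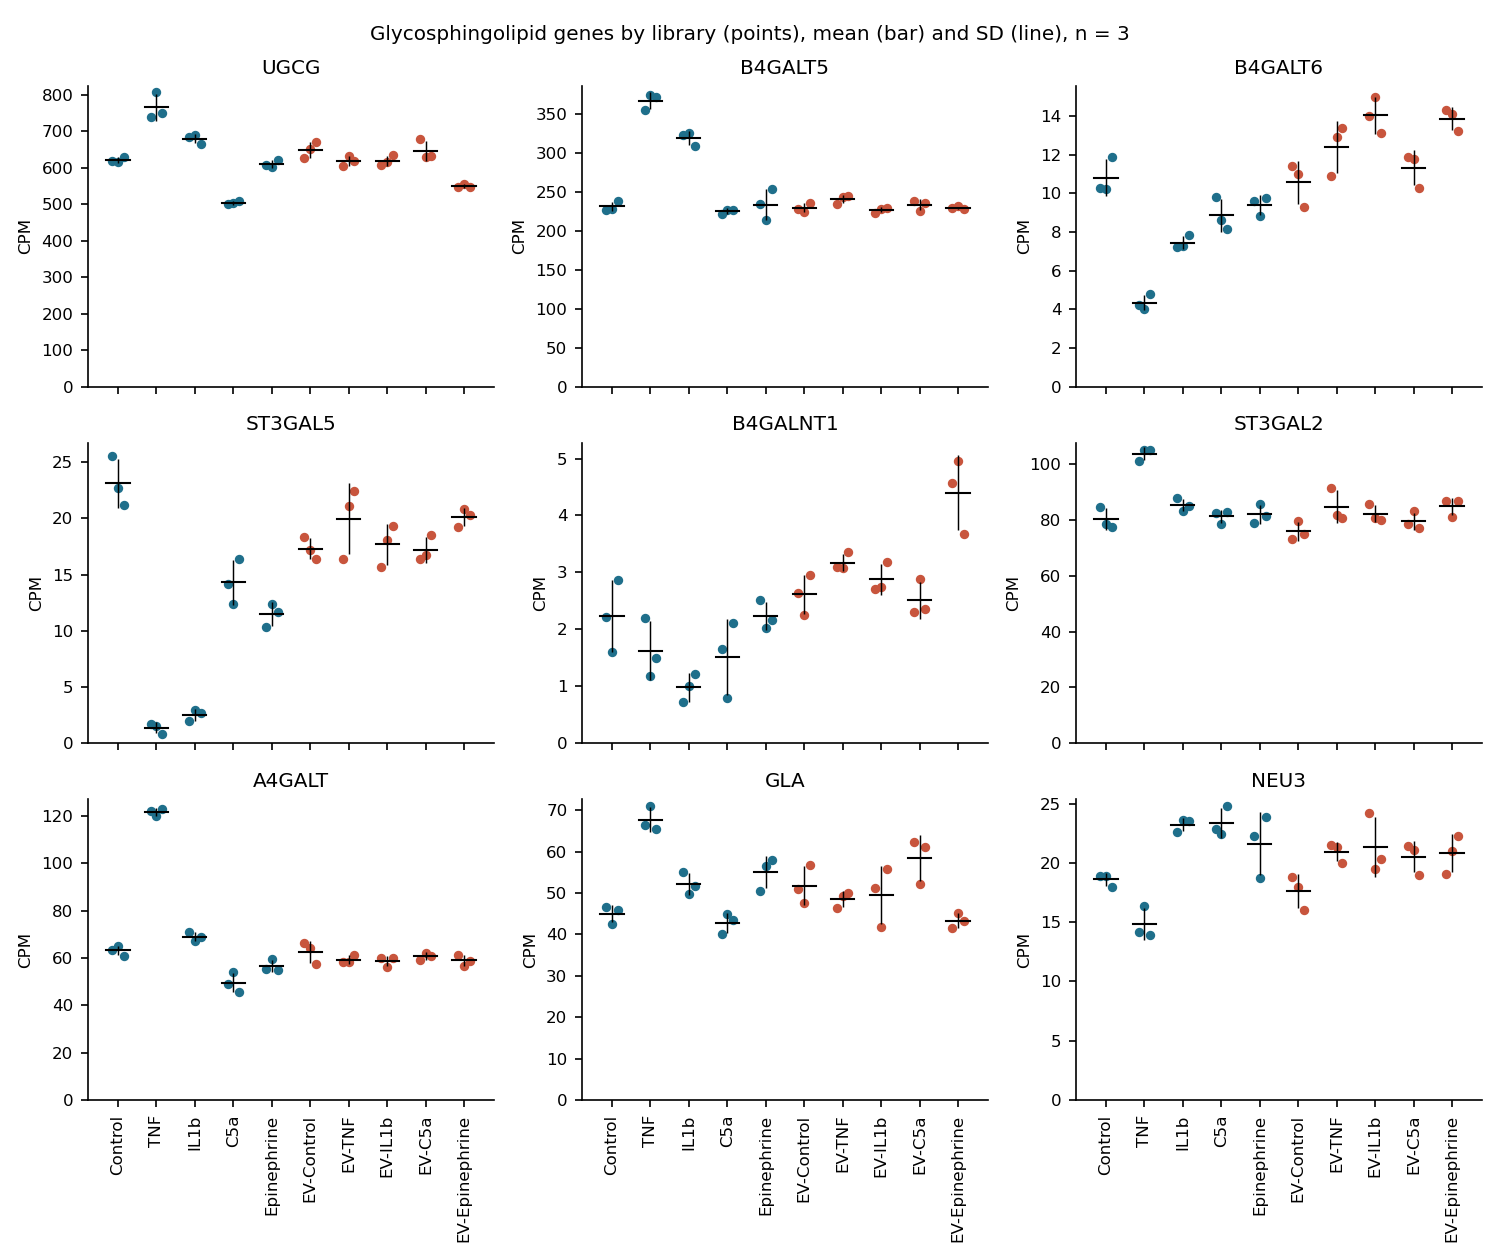
Normalised level of each of the 9 genes in CPM (y axis, from 0, a separate scale per gene) in the 10 groups (x axis); points are libraries, the bar is the mean and the line the SD of 3 libraries. The ST3GAL5 points of TNF and IL1b lie between 0.866 and 2.96 CPM, below all other groups, and those of A4GALT in TNF lie between 120 and 123 CPM, above all other groups.

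ST3GAL5 encodes the sialyltransferase that makes GM3, the first ganglioside of most cells (ENSG00000115525, GRCh38 chromosome 2, 85837120 to 85905199, minus strand). Its level was 25.5, 22.7 and 21.2 CPM in the Control libraries. In TNF cells it was 1.74, 1.56 and 0.866 CPM, from 26, 29 and 15 counts. The TNF libraries lay far below the Control libraries with no overlap, and their mean was 5.98% of that of Control (log2 fold change -4.07, SE 0.18).

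IL1b cells had 1.96, 2.96 and 2.71 CPM of ST3GAL5. Their mean was 11% of the Control mean, and the fall passed the test (log2 fold change -3.18, SE 0.16, adjusted p = 1.96e-18, edgeR quasi-likelihood test). The fall was also found in Epinephrine cells, at 10.3, 12.4 and 11.7 CPM (-1 on the log2 scale, SE 0.13, adjusted p = 1.28e-07). C5a cells had 14.2, 12.4 and 16.4 CPM (-0.68, SE 0.12, adjusted p = 6.47e-05). In all 3 the libraries were lower than every Control library, and the C5a and Epinephrine groups touched each other at 12.4 CPM.

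All comparisons with Control share the same 3 Control libraries, and ST3GAL5 was highest of all 10 groups in them. ST3GAL5 was picked for its fall in TNF against these same libraries, a choice that favours high Control values. Its p-values against Control, those of IL1b, Epinephrine, C5a and EV-Control, can therefore be too small. EV-Control cells, which had received vesicles of unstimulated cells, had 18.3, 17.2 and 16.4 CPM, below Control (log2 fold change -0.43, SE 0.11, adjusted p = 0.00268). With EV-Control in place of Control, an alternative chosen after seeing the data, the log2 fold change was -3.64 for TNF, -2.76 for IL1b (adjusted p = 6.19e-24) and -0.59 for Epinephrine (adjusted p = 0.00011), while that of C5a was -0.27 and no longer passed (adjusted p = 0.0971).

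No fall of ST3GAL5 was detected with vesicles of stimulated cells. ST3GAL5 was at 16.4, 21.1 and 22.4 CPM in EV-TNF, at 15.7, 18.1 and 19.3 CPM in EV-IL1b, at 16.4, 16.7 and 18.5 CPM in EV-C5a and at 19.2, 20.8 and 20.3 CPM in EV-Epinephrine. The log2 fold changes against EV-Control were 0.21 in EV-TNF (95% interval 0.012 to 0.4, adjusted p = 0.179), 0.033 in EV-IL1b (-0.16 to 0.23, adjusted p = 0.885), -0.0061 in EV-C5a (-0.2 to 0.19, adjusted p = 0.995) and 0.22 in EV-Epinephrine (0.026 to 0.41, adjusted p = 0.116). None passed the edgeR test, although without EV-TNF replicate 1 the EV-TNF value rose to 0.33 with an adjusted p of 0.0281. In descending order of the group means, neighbouring groups from EV-Epinephrine to EV-C5a overlapped, C5a and Epinephrine had lower means and overlapped each other, and IL1b and then TNF lay below all of these without overlap.

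A4GALT encodes the galactosyltransferase that makes Gb3 from the same lactosylceramide (ENSG00000128274, chromosome 22, 42692112 to 42721298, minus strand). It was at 63.5, 65 and 61 CPM in Control and at 122, 120 and 123 CPM in TNF libraries. The TNF libraries were above all other libraries of the series, and their mean was 193% of Control (log2 fold change 0.95, SE 0.057). The TNF libraries had lower scaling factors than the rest, and scaling by total counts alone moved the median of all genes from -0.012 to -0.288. A4GALT was higher in TNF on that scale too, by 0.67.

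The other stimuli gave small differences in A4GALT. This gene was picked for its rise in TNF against the same Control libraries, a choice that favours low Control values. The p-value of a rise against Control can therefore be too small. IL1b libraries were at 70.9, 67.3 and 68.7 CPM, each above every Control library, but the difference of 0.13 did not pass (95% interval 0.021 to 0.25, adjusted p = 0.0558). That result sits at the threshold, since it passed with only the 2 groups compared (adjusted p = 0.0369) and with EV-Control as the reference (0.14, adjusted p = 0.0408). C5a libraries were at 49.2, 53.9 and 45.7 CPM, a fall of 0.34 on the log2 scale (SE 0.059, adjusted p = 4.42e-05), and this fall was 0.33 against EV-Control (adjusted p = 8.85e-06). Epinephrine libraries were at 55.2, 59.4 and 55.1 CPM, below every Control library, with a log2 fold change of -0.15 that did not pass (adjusted p = 0.0576), but did in 5 other settings with adjusted p from 0.0294 to 0.0459, and without Epinephrine replicate 2 (0.0169). Libraries of the vesicle groups ranged from 56.1 to 66.3 CPM, and no vesicle comparison passed for A4GALT. The 95% intervals of these 4 vesicle comparisons reached from -0.2 to 0.069.

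The ratio of A4GALT to ST3GAL5 counts within a library does not depend on the scaling of libraries. It was 2.49, 2.86 and 2.87 in Control and 70.5, 77.2 and 142 in TNF. It was 36.2, 22.8 and 25.3 in IL1b, so both cytokine groups stood apart from all others. In C5a it was 3.46, 4.36 and 2.79, which overlaps Control, and in Epinephrine it was 5.35, 4.8 and 4.69, which does not. The vesicle groups spanned 2.73 to 3.82. On the log2 scale the mean ratio was 1.45 ± 0.12 in Control, 6.52 ± 0.55 in TNF, 4.78 ± 0.35 in IL1b and 1.86 ± 0.05 in EV-Control (SD, n = 3). The ratio was chosen with the TNF values known, so it is given without a test. In IL1b cells, where the ratio was also high, the log2 fold change was -3.18 for ST3GAL5 and 0.13 for A4GALT.

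**Figure D2:**
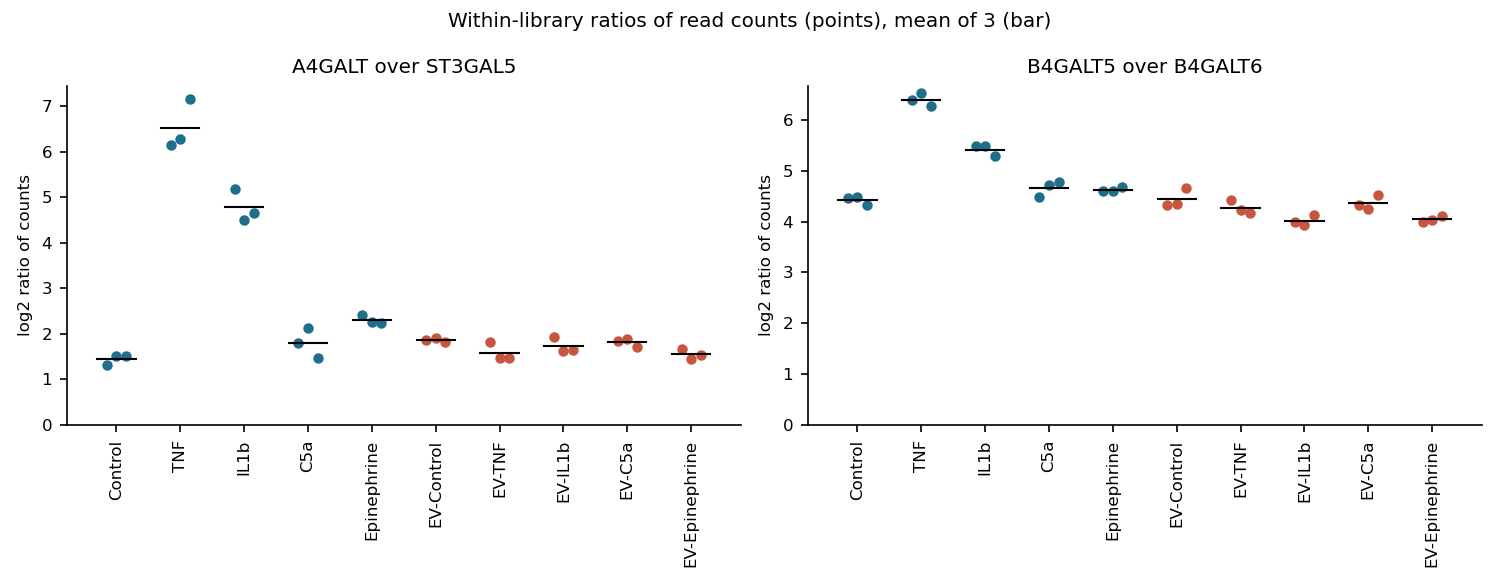
Within-library ratios of read counts on a log2 scale (y axis, from 0) for A4GALT over ST3GAL5 and for B4GALT5 over B4GALT6, by group (x axis); points are libraries and the bar is the mean of 3. TNF and IL1b lie above the other groups in both panels, with A4GALT over ST3GAL5 reaching a mean of 6.52 in TNF against 1.45 in Control.

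UGCG encodes glucosylceramide synthase, the entry enzyme of the pathway (ENSG00000148154, chromosome 9, 111896766 to 111935369, plus strand). It was at 618, 615 and 629 CPM in Control and at 738, 808 and 749 CPM in TNF, without overlap (log2 fold change 0.3, SE 0.04). This difference depends on the scaling, since by total counts it was 0.025. IL1b libraries were at 685, 688 and 665 CPM, a rise of 0.14 (SE 0.04, adjusted p = 0.00502) that did not pass by total counts (0.056, adjusted p = 0.239) or against EV-Control (0.065, adjusted p = 0.142). C5a libraries were at 499, 503 and 508 CPM, the lowest of all groups, and this fall of 0.29 on the log2 scale passed (SE 0.041, adjusted p = 9.74e-07) and was 0.37 against EV-Control (adjusted p = 1.39e-12). Epinephrine cells had 608, 601 and 621 CPM, with no detectable difference (adjusted p = 0.827).

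Among the vesicle groups, UGCG was lower in EV-Epinephrine, at 548, 555 and 546 CPM, than in EV-Control, at 627, 650 and 670 CPM. The fall of 0.24 on the log2 scale passed (SE 0.031, adjusted p = 2.96e-08), and the libraries did not overlap. EV-TNF, EV-IL1b and EV-C5a libraries ran from 603 to 678 CPM and did not pass.

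B4GALT5 and B4GALT6 encode the lactosylceramide synthases, which add galactose to glucosylceramide (ENSG00000158470, chromosome 20, 49632945 to 49713878, and ENSG00000118276, chromosome 18, 31622247 to 31685836, both minus strand). B4GALT5 was at 227, 228 and 238 CPM in Control and at 354, 374 and 371 CPM in TNF (log2 fold change 0.66, SE 0.048). In IL1b it was at 322, 325 and 309 CPM (0.47, SE 0.048, adjusted p = 3.67e-10), and the libraries of all other groups lay between 213 and 253 CPM with no call. B4GALT6 moved the other way, from 10.3, 10.2 and 11.9 CPM in Control to 4.2, 4.03 and 4.79 CPM in TNF (-1.31, SE 0.14).

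B4GALT6 was at 7.21, 7.29 and 7.87 CPM in IL1b, a fall of 0.52 on the log2 scale (SE 0.13, adjusted p = 0.000824). The TNF and IL1b libraries lay below all other libraries. In vesicle cells the direction was upward, with 14, 15 and 13.1 CPM in EV-IL1b (0.41, SE 0.11, adjusted p = 0.0076) and 14.3, 14.1 and 13.2 CPM in EV-Epinephrine (0.4, SE 0.11, adjusted p = 0.00745), against 11.4, 11 and 9.3 CPM in EV-Control. Both calls were lost without EV-Control replicate 3, at adjusted p = 0.0614 and 0.0672, and the EV-IL1b call also without EV-IL1b replicate 2 (adjusted p = 0.0551). The count ratio of B4GALT5 to B4GALT6 ran from 20 to 22.4 in Control, from 77.5 to 93 in TNF and from 39.3 to 44.6 in IL1b, and from 15.2 to 27.7 over all remaining libraries. B4GALT6 shares 107 exon bases with the antisense gene AC017100.1, which had 2 to 20 counts, and the use of strand in counting is not given in the sources used here.

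B4GALNT1 and ST3GAL2 act further along the ganglioside series. B4GALNT1 adds N-acetylgalactosamine to make GM2 and GD2 (ENSG00000135454, chromosome 12, 57623410 to 57633355, minus strand), and its 14 to 88 counts per library make it the least precise of the 9. It was at 2.22, 1.6 and 2.87 CPM in Control and at 2.2, 1.18 and 1.5 CPM in TNF, which overlap. In IL1b it was at 0.721, 1 and 1.22 CPM, below all Control libraries (log2 fold change -1.17, SE 0.34, adjusted p = 0.00461). In EV-Epinephrine it was at 4.57, 4.96 and 3.67 CPM, above EV-Control at 2.64, 2.26 and 2.95 CPM (0.75, SE 0.21, adjusted p = 0.00577). B4GALNT1 shares 2136 exon bases with SLC26A10 on the other strand, a gene with 0 counts in every library.

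ST3GAL2 encodes a sialyltransferase of the terminal galactose in gangliosides and glycoproteins (ENSG00000157350, chromosome 16, 70375978 to 70439237, minus strand). It was at 84.7, 78.5 and 77.3 CPM in Control and at 101, 105 and 105 CPM in TNF (0.37, SE 0.053, and 0.094 by total counts). IL1b, C5a and Epinephrine did not pass against Control (adjusted p = 0.128, 0.76 and 0.626). IL1b did pass against EV-Control (0.17, adjusted p = 0.00721) and without Control replicate 1 (0.15, adjusted p = 0.0371). EV-TNF cells, at 91.4, 81.8 and 80.8 CPM, and EV-Epinephrine cells, at 86.7, 81.2 and 86.6 CPM, were each 0.16 above EV-Control at 73.1, 79.6 and 74.9 CPM on the log2 scale (SE 0.052, adjusted p = 0.0337 and 0.019). Both calls hang on single libraries, and that of EV-TNF was also lost with only the groups compared (adjusted p = 0.0797). That of EV-TNF was lost without EV-Control replicate 1 (0.136), EV-Control replicate 3 (0.069) or EV-TNF replicate 1 (0.324), and that of EV-Epinephrine without EV-Control replicate 1 (0.0948) or 3 (0.0539) or EV-Epinephrine replicate 1 (0.0908) or 3 (0.0829), each value an adjusted p. It shares 590 exon bases with AC012184.1 on the other strand, which had 0 counts.

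GLA encodes alpha-galactosidase A, the lysosomal enzyme that removes the terminal galactose of Gb3 and is lacking in Fabry disease (ENSG00000102393, chromosome X, 101397803 to 101408012, minus strand). It was at 46.6, 42.6 and 45.8 CPM in Control and at 66.5, 71.1 and 65.5 CPM in TNF (0.59, SE 0.066, and 0.31 by total counts). GLA rose in IL1b, at 55, 49.8 and 51.7 CPM (0.22, SE 0.066, adjusted p = 0.00597), and in Epinephrine, at 50.6, 56.6 and 58 CPM (0.3, SE 0.066, adjusted p = 0.000645). Neither passed against EV-Control, whose libraries were at 51, 47.5 and 56.8 CPM (0.011, adjusted p = 0.925, and 0.091, adjusted p = 0.462), and the IL1b rise did not pass by total counts (0.14, adjusted p = 0.0746). C5a libraries, at 40.2, 44.9 and 43.5 CPM, did not pass against Control (adjusted p = 0.584) and did against EV-Control (-0.27, adjusted p = 0.00826). EV-Epinephrine libraries, at 41.6, 45.1 and 43.2 CPM, lay below every EV-Control library, and the difference of -0.26 did not pass (95% interval -0.44 to -0.077, adjusted p = 0.059). It did pass in 6 of 14 alternatives, with adjusted p from 0.000487 (no filter) to 0.0266 (without EV-Control replicate 2), DESeq2 among them (0.0185).

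NEU3 encodes the sialidase of the plasma membrane that acts on gangliosides (ENSG00000162139, chromosome 11, 74988134 to 75018893, plus strand). It was at 18.9, 18.9 and 18 CPM in Control and at 14.2, 16.4 and 13.9 CPM in TNF, the lowest group (log2 fold change -0.33, SE 0.098). It rose in IL1b, at 22.6, 23.6 and 23.5 CPM (0.33, SE 0.093, adjusted p = 0.0038), and in C5a, at 22.9, 22.4 and 24.8 CPM (0.34, SE 0.092, adjusted p = 0.00609). Epinephrine cells had 22.3, 18.7 and 23.9 CPM, where replicate 2 overlapped Control (0.23, adjusted p = 0.0685, and 0.32, adjusted p = 0.00728 without that library).

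All 4 vesicle comparisons put NEU3 above EV-Control, by 0.22 to 0.28 on the log2 scale, against EV-Control libraries at 18.8, 18 and 16 CPM that they share. EV-IL1b, at 24.2, 19.5 and 20.3 CPM, passed (0.28, SE 0.093, adjusted p = 0.0344), but not without EV-Control replicate 2 (0.0609), EV-Control replicate 3 (0.162) or EV-IL1b replicate 1 (0.304), each an adjusted p. EV-TNF (adjusted p = 0.0585), EV-Epinephrine (0.0572) and EV-C5a (0.571) did not pass. EV-TNF and EV-Epinephrine did pass by total counts (0.0432 and 0.0267), at a minimum mean of 50 counts (0.0475 and 0.0476) and without EV-Control replicate 1 (0.0454 and 0.0451), and EV-Epinephrine also without EV-Epinephrine replicate 1 (0.0385).

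**Figure D3:**
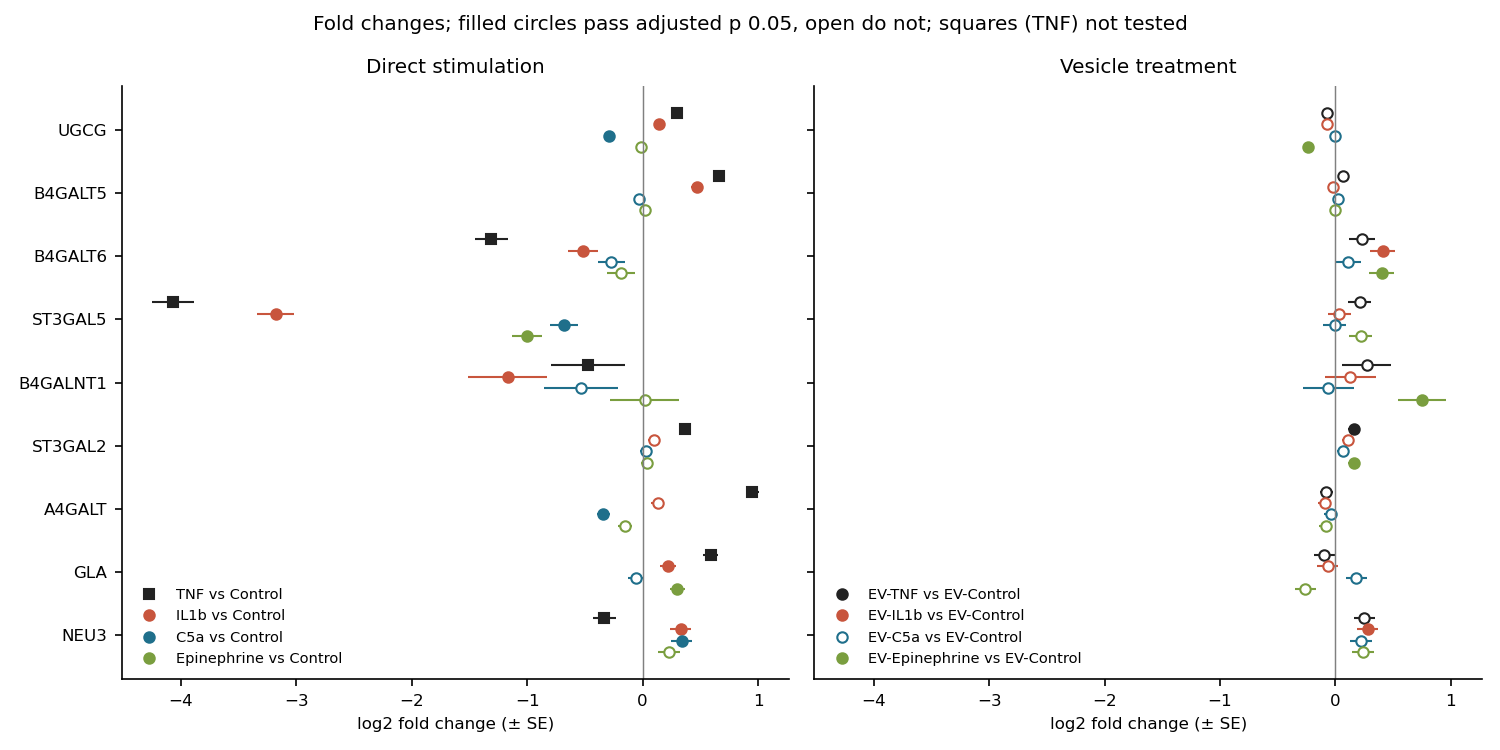
Log2 fold change (x axis, ± SE) of each of the 9 genes (y axis) for the direct groups against Control and the vesicle groups against EV-Control, 3 libraries a group; filled circles pass an adjusted p of 0.05, open circles do not, and the squares of TNF were not tested. ST3GAL5 lies at -4.07 in TNF and -3.18 in IL1b, and no vesicle value exceeds the 0.75 of B4GALNT1 in EV-Epinephrine.

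Counted over the 9 genes, 8 did not overlap between TNF and Control libraries, where 59.5% of all genes tested did not overlap, and TNF had 52.7% of all genes past the threshold. IL1b against Control called 7 of the 9 (4 higher and 3 lower), where 46.6% of all 15908 genes were called, 24% higher and 22.6% lower, and by total counts 2 were higher and 3 lower. C5a called 4 of 9 (1 higher, 3 lower), where 22.6% of all genes were called, 11.8% higher and 10.8% lower. Epinephrine called 2 of 9 (1 higher, 1 lower) with 25.2% of all genes, 13.5% higher and 11.8% lower. By total counts or relative log expression factors the Epinephrine calls were 1 higher and 2 lower.

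In vesicle cells 1 of 9 was called in EV-TNF, and higher, where 13.3% of all 15918 genes were called (5.9% higher and 7.42% lower). In EV-IL1b 2 of 9 were called, both higher, with 14.6% of all genes called (6.49% higher and 8.14% lower). In EV-Epinephrine 4 of 9 were called (3 higher, 1 lower), with 19.7% of all genes called (9.12% higher and 10.5% lower). Without EV-Control replicate 3 those counts were 0, 0 and 2, so they rest in part on that library. EV-C5a had 0 of 9 with edgeR and 0 with DESeq2, and only NEU3 was under 0.05 before adjustment, where 0.0503% of all genes were called. EV-Control against Control called 1 of 9, ST3GAL5, lower, with 21.9% of all genes called (9.8% lower), and GLA became the second without EV-Control replicate 2 (adjusted p = 0.0176). None of these counts sets the 9 genes apart from the other genes tested.

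The difference between the vesicle response and the direct response was itself tested for IL1b, C5a and epinephrine in a fit of all 30 libraries. It passed for 7 of 9 genes with IL1b (35.2% of all 16691 genes), for 3 of 9 with C5a (11.9%) and for 4 of 9 with epinephrine (24.2%). For ST3GAL5 it was 3.22 on the log2 scale with IL1b (SE 0.19, adjusted p = 5.55e-22), 1.23 with epinephrine (SE 0.16, adjusted p = 8.65e-09) and 0.69 with C5a (SE 0.16, adjusted p = 0.00157). The high Control level of ST3GAL5 enters each of these values. The gene was picked with those Control libraries, so these p-values can be too small as well.

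Beyond the 9 genes, 47 other genes of the pathway were listed by role, and 37 had enough counts for the direct comparisons and 38 for the vesicle comparisons. The list was written from general knowledge with earlier results of these libraries known. IL1b called 22 of 37 (5 higher, 17 lower), C5a 19 (1 higher, 18 lower) and Epinephrine 17 (4 higher, 13 lower), with 46.6%, 22.6% and 25.2% of all genes called. The median log2 fold change of the list was -0.137 in IL1b, -0.175 in C5a and -0.071 in Epinephrine, where that of all genes was -0.011, -0.002 and 0.009. TNF called 25 of 37, 8 higher and 17 lower, or 2 higher and 27 lower by total counts, where 52.7% of all genes were called.

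The lean towards falls depended on the reference. With EV-Control in place of Control, in the fit of all 30 libraries, TNF called 17 of 38 higher and 8 lower, IL1b 8 and 10, C5a 3 and 6, and Epinephrine 6 and 5. With Control in that same fit the counts were 8 higher and 19 lower, 5 and 18, 1 and 18, and 3 and 14. Of all genes, 48.7% were called in TNF, 41.1% in IL1b, 18.2% in C5a and 19.8% in Epinephrine with EV-Control as reference.

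The falls against Control were mostly those of the breakdown genes, which encode lysosomal hydrolases and activator proteins that take sphingolipids apart, and GBA2, a glucosylceramidase outside the lysosome. Of 12 tested, 11 were lower in TNF, in IL1b and in C5a and 9 in Epinephrine, and none was higher. These 12 leave out the breakdown enzymes GLA and NEU3, which are among the 9 genes described above. GLA was called higher in IL1b and Epinephrine, and NEU3 in IL1b and C5a. In TNF, where neither was tested, GLA was higher and NEU3 lower. Among all genes, 22.6% were called lower in IL1b, 10.8% in C5a and 11.8% in Epinephrine. In TNF 52.7% of all genes were called in either direction. EV-Control against Control also called 11 of the 12 lower (median -0.334), in a comparison that called 9.8% of all genes lower. The Control mean was the highest of all 10 groups for 11 of the 12, the exception being GBA2. With EV-Control in place of Control, TNF had 5 of the 12 higher and 3 lower, IL1b 0 and 4, C5a 0 and 2, and Epinephrine 5 and 2, so the number of falls depends on which reference libraries are used.

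**Figure D4:**
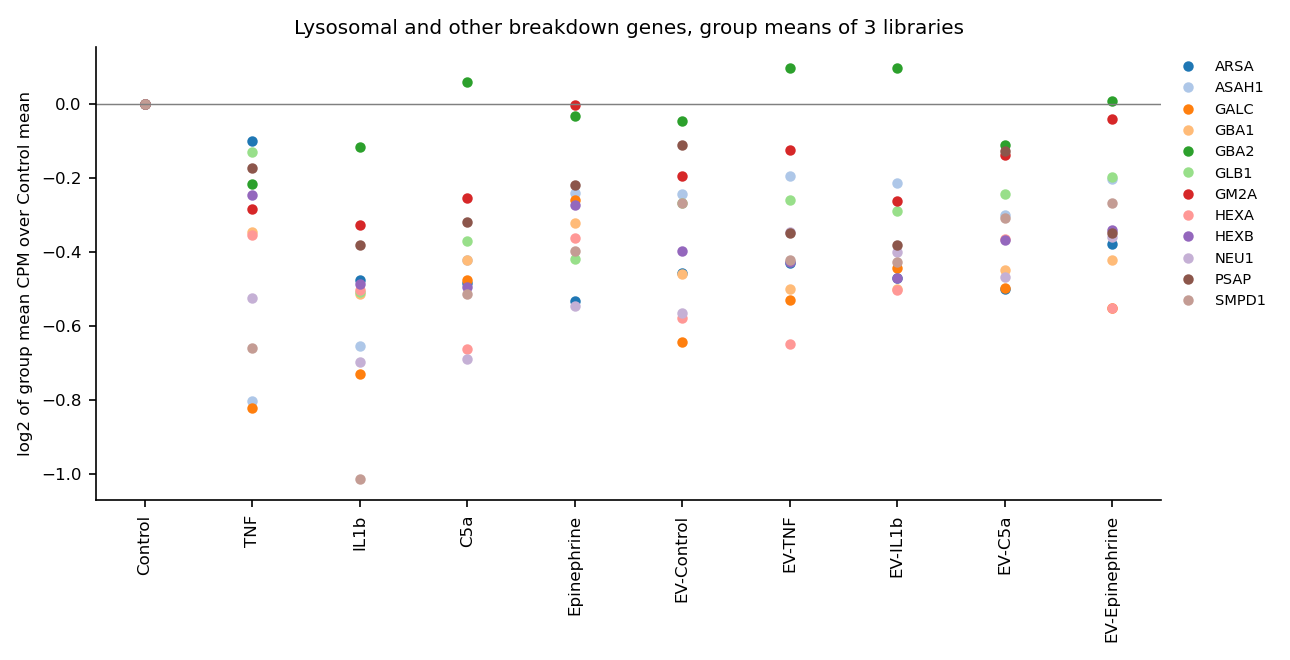
Group means of the 12 breakdown genes as log2 of the ratio to the Control mean (y axis) by group (x axis), each colour a gene and each point a mean of 3 libraries. For 11 of the 12 genes every other group lies below Control, which is at 0 by construction, EV-Control included.

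Named by rule as the largest changes, NEU1, a lysosomal sialidase, fell from 136 CPM in Control to 84.3 CPM in C5a (-0.68, SE 0.058, adjusted p = 3.16e-11) and 93.2 CPM in Epinephrine (-0.53, SE 0.057, adjusted p = 5.48e-09). EV-Control was at 92 CPM, and against it neither passed (-0.13, adjusted p = 0.148, and 0.018, adjusted p = 0.88). HEXA, a subunit of beta-hexosaminidase, was at 53.6 CPM in Control, 33.9 CPM in C5a (-0.65, SE 0.075, adjusted p = 2.78e-08) and 35.9 CPM in EV-Control (-0.58, SE 0.076, adjusted p = 1.7e-08), and C5a did not pass against EV-Control (-0.081, adjusted p = 0.549). SMPD1, the acid sphingomyelinase, fell from 72.9 to 36.1 CPM in IL1b (-1.01, SE 0.064, adjusted p = 2.47e-15). GALC, which removes galactose from galactosylceramide, was at 18.9 CPM in Control and 12.1 CPM in EV-Control (-0.64, SE 0.1, adjusted p = 1.36e-06).

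In the lacto series, B4GALT1, a galactosyltransferase mainly of glycoproteins, was at 217 CPM in Control, 335 CPM in IL1b (0.64, SE 0.049, adjusted p = 2.81e-13) and 605 CPM in TNF (1.48, SE 0.049). B3GNT5, which opens the lacto series from lactosylceramide, was at 69 CPM in Control, 172 CPM in TNF and 111 CPM in EV-Control (0.68 over Control, SE 0.06, adjusted p = 3.35e-13). From that level it fell to 82 CPM in EV-TNF, 84.1 CPM in EV-IL1b and 78.7 CPM in EV-Epinephrine (-0.43, -0.4 and -0.49, adjusted p = 0.00114, 0.00223 and 0.00026), so these cells lay between EV-Control and Control. In C5a 5 of the 6 genes of this series were lower than Control and none higher, where 10.8% of all genes were called lower. Against EV-Control 2 were lower. Among the 5, named after their values were seen, B4GALT1 was at 175 CPM (-0.3, SE 0.049, adjusted p = 1.46e-05) and B3GNT5 at 52.9 CPM (-0.38, SE 0.055, adjusted p = 2.89e-06). Of the 6, TNF called 2 higher and 0 lower, and IL1b 2 higher and 1 lower. TNF called 52.7% of all genes and IL1b 46.6%. The Control mean was the highest of all 10 groups for B4GALT3, ST3GAL4 and ST3GAL6.

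Of the other ganglioside genes, B3GALT4, which extends GM2, was at 8.41 CPM in Control and lower in TNF (4.6 CPM, -0.88, SE 0.17, adjusted p = 4.23e-05), IL1b (3.61 CPM, -1.21, SE 0.17, adjusted p = 3.86e-07), C5a (5.27 CPM) and Epinephrine (5.05 CPM), and also in EV-Control (4.47 CPM, -0.91, SE 0.18, adjusted p = 5.61e-05). Against EV-Control none of these direct groups passed (0.031, -0.31, 0.24 and 0.17 in that order, adjusted p = 0.91, 0.205, 0.43 and 0.591). ST3GAL1, a sialyltransferase, rose from 36.1 to 55.5 CPM in IL1b (0.63, SE 0.071, adjusted p = 3.45e-09) and from 31.8 CPM in EV-Control to 37.4 CPM in EV-Epinephrine (0.23, SE 0.079, adjusted p = 0.0292). The EV-Epinephrine call was lost with DESeq2 (adjusted p = 0.0516) and without EV-Control replicate 1 (0.15, adjusted p = 0.237) or 2 (0.0819) or EV-Epinephrine replicate 1 (0.143) or 3 (0.0671). The low-count ST6GALNAC3 rose from 0.652 to 1.44 CPM in Epinephrine (1.16, SE 0.4, adjusted p = 0.0301), and ST6GALNAC6 was at 0.234 CPM in Control, 0.67 CPM in TNF (adjusted p = 0.0284) and 0.911 CPM in EV-Control (adjusted p = 0.015). That of ST6GALNAC3 was lost without Control replicate 1 or 2 or Epinephrine replicate 1 or 3 (adjusted p from 0.0587 to 0.11). For ST6GALNAC6 the TNF call was lost without Control replicate 2 or 3 or TNF replicate 2 or 3 (adjusted p from 0.0698 to 0.138), and the EV-Control call without Control replicate 2 (0.0973) or EV-Control replicate 3 (0.106).

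Among ceramide genes, CERS4, a ceramide synthase, fell from 2.41 CPM in Control to 1.08 CPM in TNF (-1.14, SE 0.33, adjusted p = 0.00361) and 0.843 CPM in IL1b (-1.51, SE 0.33, adjusted p = 0.000316), and it rose from 3.33 CPM in EV-Control to 4.93 CPM in EV-Epinephrine (0.56, SE 0.19, adjusted p = 0.0305). The latter call was lost without any 1 of EV-Control replicates 1, 2 and 3 and EV-Epinephrine replicates 1 and 2 (adjusted p from 0.0529 to 0.153). SPTLC3, a subunit of serine palmitoyltransferase, rose from 15.8 to 23.4 CPM in Epinephrine (0.58, SE 0.11, adjusted p = 0.000101), and SPTSSA, a small subunit of that enzyme, from 63.9 to 75.7 CPM (0.25, SE 0.065, adjusted p = 0.00328), and neither passed against EV-Control (0.26 and 0.11, adjusted p = 0.0623 and 0.194). PLEKHA8, a carrier of glucosylceramide, rose from 17.1 to 21.6 CPM in IL1b and 22.3 CPM in C5a (0.34 and 0.39, adjusted p = 0.00269 and 0.00162). CERS6 rose in EV-IL1b from 33.6 to 39.7 CPM (0.24, SE 0.07, adjusted p = 0.0123), but not without EV-Control replicate 2 (0.0641) or EV-IL1b replicate 2 (0.0628).

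The vesicle comparisons called 5 of 38 in EV-TNF (1 higher, 4 lower), 7 in EV-IL1b (2 higher, 5 lower) and 9 in EV-Epinephrine (5 higher, 4 lower), where 13.3%, 14.6% and 19.7% of all genes were called. By total counts the splits were 3 and 3, 3 and 4, and 8 and 4, and without EV-TNF replicate 1 the EV-TNF count was 3. EV-C5a called 0 with edgeR and 0 with DESeq2, and 2 at an unadjusted p under 0.05. KDSR, the reductase of the second step of ceramide synthesis, fell in EV-TNF (-0.21, SE 0.054), EV-IL1b (-0.29, SE 0.055) and EV-Epinephrine (-0.23, SE 0.055), with adjusted p of 0.0048, 7.69e-05 and 0.00153, that of EV-TNF being lost without EV-Control replicate 1 (0.0686). PSAP, precursor of the lysosomal saposins, fell in the same comparisons from 1640 CPM to 1390, 1360 and 1390 CPM, and NEU1 rose in EV-TNF (0.21, adjusted p = 0.0085) and EV-IL1b (0.16, adjusted p = 0.0494). The NEU1 call in EV-TNF was lost without EV-Control replicate 2 (0.0514) or EV-TNF replicate 1 (0.0534), and that in EV-IL1b with DESeq2 (0.0643) and without EV-Control replicate 1 or 2 or EV-IL1b replicate 1 or 3 (adjusted p from 0.137 to 0.246). FUT1, a fucosyltransferase, fell in TNF from 3.8 to 1.88 CPM (-1.01, SE 0.24, adjusted p = 0.000499), though not against EV-Control (-0.48, adjusted p = 0.0995). FUT1 fell in Epinephrine from 3.8 to 2.12 CPM (-0.83, SE 0.23, adjusted p = 0.0066), though not without Epinephrine replicate 1 (-0.59, 0.0651) or against EV-Control (-0.31, 0.416), and rose in EV-Epinephrine from 2.64 to 4.86 CPM (0.89, SE 0.21, adjusted p = 0.0011). The vesicle comparisons share the 3 EV-Control libraries.

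The genes whose log2 CPM followed ST3GAL5 most closely over the 30 libraries, among 10546 genes, were ALDH3B1 (r = 0.972), PCYOX1 (0.968), COL9A3 (0.968), ZNF362 (0.966) and KCNAB2 (0.964). Those most like A4GALT were ARID5A (0.972), TNFSF18 (0.965), CSF1 (0.964), HAPLN3 (0.963) and NFE2L1 (0.962). The coefficients are Pearson's and are given as a description, since the libraries of a group are not independent of each other and TNF and IL1b stand apart from the rest. By rank correlation 0 of the 5 nearest to ST3GAL5 and 2 of the 5 nearest to A4GALT were the same. ALDH3B1 had means of 64.2 CPM in Control, 20.6 CPM in TNF and 28.3 CPM in IL1b, and ARID5A of 18.7, 57.4 and 23.1 CPM.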

How the data were processed

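RNA of 30 hCMEC/D3 libraries was sequenced, and the authors deposited unnormalised counts by Ensembl gene in a single table, per the file headers. Per the submitters' processing notes, STAR, FastQC, DESeq2 and R 4.4.1 were used with hg38, and the counting program and its use of strand are not given in the sources used here. Of 63147 lines, 4 without a gene ID hold 0.00079% to 0.0016% of a library's counts and were left out. 3 repeated gene IDs were kept once, and 2 gene IDs without counts were left out.

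Tests used edgeR 4.0.16 in R 4.3.3 (filterByExpr, trimmed mean of M-values, quasi-likelihood test with robust dispersion, two-sided, Benjamini-Hochberg over all genes of a comparison, threshold 0.05). Direct groups, vesicle groups, and EV-Control against Control with the interactions were fitted on 15, 15 and 30 libraries. CPM use the factors of the 30 libraries, ± is the SD, and intervals are at 95%. The members and gene lists were chosen with earlier results of these data known. All 9 members are named, and of the listed pathway genes up to 3 rises and 3 falls per comparison with no overlap between groups (overlap allowed for interactions). The 5 genes most like ST3GAL5 or A4GALT by Pearson correlation of log2 CPM (prior count 2) had a mean of at least 5 CPM. Gene positions and exon lengths come from GENCODE 29 on GRCh38, and upstream sequences from RefSeq. Replicate pairs differed by a chi-square per gene of 2.04 to 12.9, so none was taken for 1 library.

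The edgeR step was tested on simulated counts of IL1b against Control with 15464 genes. It found 57 of 100 genes changed by 0.5 and 82 of 100 changed by 1 on the log2 scale, with 7 false calls. Only these genes were changed, whereas the real IL1b comparison called 46.6% of all genes. The rates found need not hold for the real libraries. Alternatives were other scaling, filters, DESeq2 1.42.0, a replicate block, other sets of libraries and leaving out each library. EV-Control in place of Control was added after seeing the data.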

Additional observations from a re-analysis of the deposited data

Results flagged for a closer look

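In 14 cases the response to vesicles of stimulated cells differed from the response to the stimulus itself, by a test of the difference in edgeR over all 30 libraries. They were 7 of the 9 genes with IL1b, 3 of 9 with C5a and 4 of 9 with epinephrine. Of all 16691 genes, 35.2%, 11.9% and 24.2% passed the same tests. The values are the vesicle response minus the direct response on the log2 scale, and each rests on the shared Control and EV-Control libraries. ST3GAL5 and A4GALT were picked by their TNF response against those Control libraries, so their tests here are not independent of that choice.

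For interleukin 1 beta the difference was 3.22 for ST3GAL5 (SE 0.19), 0.94 for B4GALT6 (SE 0.17) and 1.31 for B4GALNT1 (SE 0.38), which fell in IL1b cells and did not fall in EV-IL1b cells. It was -0.48 for B4GALT5 (SE 0.059), -0.2 for UGCG (SE 0.051), -0.22 for A4GALT (SE 0.081) and -0.28 for GLA (SE 0.11). The differences of UGCG, A4GALT and GLA did not pass by total counts (adjusted p = 0.0655, 0.21 and 0.153). Those of A4GALT and GLA also lost their call when single libraries were left out, A4GALT without Control replicate 3, IL1b replicate 1, EV-Control replicate 1 or 2, or EV-IL1b replicate 2 (adjusted p from 0.056 to 0.0882), and GLA without Control replicate 2, IL1b replicate 1, EV-Control replicate 3 or EV-IL1b replicate 2 (adjusted p from 0.0956 to 0.205).

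For C5a the difference was 0.3 for UGCG (SE 0.051), 0.69 for ST3GAL5 (SE 0.16) and 0.31 for A4GALT (SE 0.081), all 3 lower in C5a cells. That of A4GALT did not pass without C5a replicate 3 (adjusted p = 0.0603) or EV-Control replicate 3 (0.0569). For epinephrine it was 1.23 for ST3GAL5 (SE 0.16), 0.59 for B4GALT6 (SE 0.16), -0.21 for UGCG (SE 0.051) and -0.55 for GLA (SE 0.11).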

How the results depend on the processing

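Of 1202 log2 fold changes recomputed under other settings, 1125 kept their direction and side of the threshold, and of 1062 recomputed without 1 library 960 did. ST3GAL5 in IL1b and Epinephrine, B4GALT5 in IL1b, UGCG in C5a and EV-Epinephrine and A4GALT in C5a kept direction and side of the threshold in all settings run. Most calls that changed are given beside their genes. Depth limits B4GALNT1 most, and replicate numbers limit all calls, since 3 libraries stand in each group.

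Counts of the 9 genes called moved as follows. EV-Control against Control gave 2 with relative log expression factors, genes unfiltered, a minimum mean of 50 counts, DESeq2, the replicate block and only the groups compared, against 1, and 1 to 2 when libraries were left out. EV-TNF gave 2 by total counts and at a mean of 50 counts, 0 with only the groups compared, and 0 to 2 when libraries were left out. EV-IL1b gave 1 with only the groups compared and 0 to 2 without single libraries. The counts without single libraries were 2 to 4 in Epinephrine and 2 to 5 in EV-Epinephrine. The IL1b difference between vesicle and direct responses gave 4 by total counts, against 7. Other pathway genes called in EV-TNF were 3 to 7 without single libraries, and with EV-Control as reference there were 9 in C5a and 11 in Epinephrine. No cause was tested.

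Some values near 0 that never passed changed sign. By total counts these were NEU3 in the IL1b difference (0.048), B4GALT5 in the Epinephrine difference (0.02) and in EV-Epinephrine (0.033, and 0.0025 at a mean of 50 counts), UGCG in EV-C5a (0.0061) and ST3GAL5 in EV-C5a (0.0062), and with EV-Control as reference B4GALNT1 in Epinephrine (-0.23). Values that had passed and then changed sign without passing, also with EV-Control as reference, were those of ST6GALNAC6 (-0.43) and B3GALT4 (0.031) in TNF, B3GALT4 in C5a (0.24) and B3GALT4 (0.17) and NEU1 (0.018) in Epinephrine. Without single libraries 18 values spanned 0. In Epinephrine they were B4GALNT1 -0.17 to 0.24 and B4GALT5 -0.032 to 0.087. In the IL1b vesicle-minus-direct difference they were ST3GAL2 -0.028 to 0.05 and NEU3 -0.15 to 0.02. In the C5a vesicle-minus-direct difference they were ST3GAL2 -0.0092 to 0.069. In EV-Control against Control they were A4GALT -0.05 to 0.048, B4GALT5 -0.028 to 0.018 and B4GALT6 -0.082 to 0.054. In the Epinephrine vesicle-minus-direct difference they were NEU3 -0.076 to 0.098 and B4GALT5 -0.084 to 0.041. In EV-C5a they were ST3GAL5 -0.062 to 0.037, A4GALT -0.096 to 0.003, UGCG -0.04 to 0.022 and B4GALNT1 -0.17 to 0.044. In EV-IL1b they were B4GALT5 -0.039 to 0.0059, ST3GAL5 -0.032 to 0.11 and GLA -0.16 to 0.044. In EV-Epinephrine they were B4GALT5 -0.019 to 0.021.

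Over all genes, deviations of same-numbered replicates had correlations of -0.0393 to 0.0259, so no pairing by number was detected. With 3 libraries a group a weak pairing could be missed. In 2 of the 9 comparisons every library correlated best with its own number. Of 150 log2 fold changes under the replicate block 148 stayed the same, by the rule given above for other settings. The block gave GLA a call in EV-Control against Control (0.2, adjusted p = 0.0431) and in EV-Epinephrine (-0.25, adjusted p = 0.00759).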
